A study of Mus musculus with 46 samples.

Results

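Metallothioneins and oxidative stress genes encode the proteins that bind surplus metal ions and keep the redox balance of a cell. The 9 genes described here, of 37108 in the gene table, are Mt1, Mt2, Hmox1, Nqo1, Gclc, Gclm, Slc7a11, Txnrd1 and Srxn1. They were taken by symbol from 2 tables of expression values: the gene table, which covers the reprogramming time course, and the transcript table, whose transcripts were summed by symbol into 35976 genes. All 9 were present in both tables, and all 9 passed the filter on low values in the time course.

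The RNA-seq libraries came from mouse embryonic fibroblasts (MEF) of OG2 mice, which carry a GFP reporter driven by Oct4 regulatory sequence. The MEF were infected with retroviruses for Oct4 together with either native Nanog (labelled Nanog+Oct4, called NanogWT here) or Nanog fused at its N-terminus to the BRG1-interacting domain of SS18 (labelled NanogN70+Oct4, called NanogBiD here). Day 0 (D0) was the end of 2 rounds of infection, when the cells entered the iCD3 induction medium, and from about D7 they were kept in N2B27 with 2iL, a medium with LIF and inhibitors of GSK3 and MEK. Each combination was sampled on 8 days from D0 to D12 with 2 libraries a day, except that NanogBiD had 1 library at D8. The other samples were 2 MEF libraries without retrovirus, 1 OG2 mouse embryonic stem cell (mES) library and 12 libraries of induced pluripotent stem cells (iPSC), 6 per combination, from lines labelled iPSC1 and iPSC2. How NanogWT iPSC1 samples 1# and 1#-2 are related is not stated, so they are counted as 2 of the 12, and averaging them changed no call of a member. The mES and iPSC were grown without feeder cells in N2B27 with 2iL. All time-course libraries are of whole cultures that may mix cells at different stages, so fewer cells of a type and less RNA per cell cannot be told apart. The labels do not say whether replicates were separate cultures, and p-values therefore measure only the spread between these libraries.

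Most of these genes are textbook targets of NRF2 (gene symbol Nfe2l2), a transcription factor that KEAP1 marks for degradation in unstressed cells and that accumulates when oxidants or electrophiles modify KEAP1. NRF2 pairs with small MAF proteins and binds antioxidant response elements (ARE), while BACH1 competes for such sites. The metallothioneins Mt1 and Mt2 are small cysteine-rich proteins that hold zinc and other metal ions. Their best known regulator is MTF1, a zinc sensor that binds metal response elements (MRE), and glucocorticoids and oxidants also induce them. Slc7a11, the cystine importer, is a known target of both NRF2 and ATF4, the latter acting in the amino acid response through C/EBP-ATF response elements (CARE).

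The letters of these motifs were searched in the windows that RefSeq (build GRCm38.p6, the assembly called mm10) gives around gene starts, 250 bases before and 50 after, on both strands. Entries were matched for 7 of the 9 genes, with 3 starts for Txnrd1; Hmox1 and Gclc had no entry. Over all 32851 windows, ARE (TGACNNNGC) was in 12.4%, MRE (TGCACNC or TGCGCNC) in 25.7% and CARE (TGATGNAAN) in 3.95%. The following sequences are shown because they hold matches of the metallothioneins, of Slc7a11 and of Gclm. Matched letters are in capitals, 5′ to 3′ on the strand of the gene. The Mt2 sequence is the 250 bases before the start (chr8:94172368-94172617, plus strand), with 3 MRE and, 79 bases before the start, 1 ARE.
Mt2: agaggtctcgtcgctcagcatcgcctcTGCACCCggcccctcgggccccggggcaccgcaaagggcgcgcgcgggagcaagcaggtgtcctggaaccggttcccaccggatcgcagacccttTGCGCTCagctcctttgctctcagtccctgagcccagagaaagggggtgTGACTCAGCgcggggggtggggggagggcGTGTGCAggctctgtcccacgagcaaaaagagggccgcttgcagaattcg
The Slc7a11 sequence is also the 250 bases before the start that was used (chr3:50443614-50443863, minus strand). That start lies inside the RefSeq interval of the gene (50364936 to 50499087) and not at its end. The sequence holds 2 CARE in opposite orientation, which begin 66 and 48 bases before this start.
Slc7a11: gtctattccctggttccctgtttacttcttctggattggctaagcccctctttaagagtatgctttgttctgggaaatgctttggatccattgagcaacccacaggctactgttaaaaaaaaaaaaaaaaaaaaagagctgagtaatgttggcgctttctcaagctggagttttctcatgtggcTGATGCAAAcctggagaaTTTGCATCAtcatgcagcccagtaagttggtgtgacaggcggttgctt
For Mt1 and Gclm, 30 bases around some of the matches are given. Those of Mt1 (chr8:94179086-94179115, plus strand) hold 2 MRE, and those of Gclm (chr3:122245402-122245431, plus strand) hold an MRE that overlaps an ARE.
Mt1 stretch: agctcTGCACTCcgcccgaaaagTGCGCTC
Gclm stretch: ggctgagcggcgctcccGGGCGCACCGTCA

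Over the whole 300-base window, Mt2 held 4 MRE, Mt1 and Gclm 3 each and Srxn1 1, while 7.11% of all windows held 2 or more. Slc7a11 was among the 0.0700% of windows with 2 or more CARE. ARE were matched in the windows of Mt2, Gclm, Srxn1 and 1 of the 3 starts of Txnrd1. No ARE, MRE or CARE letters were found in the window of Nqo1, and no ARE in those of Mt1 and Slc7a11. A match is a string of letters and not a measured binding site, and elements outside these windows were not searched.

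In RefSeq, the metallothioneins lie side by side on chromosome 8, Mt2 at 94172618 to 94173567 and Mt1 at 94178883 to 94180327. Hmox1 (75093618 to 75100593) and Nqo1 (107388225 to 107403205) are on the same chromosome. Gclm (122245487 to 122267215) and Slc7a11 (50364936 to 50499087) are on chromosome 3, Gclc (77754535 to 77794489) on chromosome 9, Txnrd1 (82833951 to 82897724) on chromosome 10 and Srxn1 (152105524 to 152111376) on chromosome 2. The window starts used above for Mt1, Gclm, Slc7a11 and some of those of Txnrd1 lie inside these intervals. Positions of their matches are relative to those starts and not to the outer ends. The longest run of bases shared by Mt1 and Mt2 transcripts was 20 bases, shorter than a usual read. In GENCODE, Mt2 overlaps an antisense gene (Gm45774), and Gclm, Slc7a11 and Txnrd1 overlap 2, 5 and 3 other genes. The sources do not say if strand was used in counting, so their values are uncertain to that extent.

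Values are FPKM, fragments per kilobase of gene model, scaled to the mapped fragments of the library, and differences are on the log2(FPKM + 1) scale with their standard error (SE). A gene is called where the adjusted p is under 0.05 and the log2 difference is at least 1 in size. Relative depth, read from the step between low values, was 0.830 to 1.13 in all gene-table libraries other than the NanogWT libraries of D8 to D12, which stood at 1.89 to 3.26. Depth and combination cannot be told apart from D8 on. Across genes, r was 0.979 to 0.995 between replicates of a day. The labels were checked on marker genes: 10 fibroblast markers summed to 6774 and 5773 FPKM in MEF and 11.6 in mES, and 8 pluripotent markers to 1.41 and 0.337 in MEF and 3543 in mES. At D12 the fibroblast sum was 306 and 449 FPKM with NanogBiD and 3487 and 3034 with NanogWT, and the pluripotent sum was 2273 and 1262 against 159 and 227. The 6 macrophage markers summed to 53.4 to 151 FPKM at D0 and to 5.15 and 9.31 in MEF, and the highest D0 value was that of NanogWT replicate 1. In both combinations, replicate 1 had a higher macrophage sum than replicate 2 on each day with both replicates.

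Between the combinations, no member was called on D0 or D1, 1 on each of D3, D5 and D7, 4 on D10 and 5 on D12, and every called member was lower with NanogBiD. The first day with a call was D3 for Nqo1, D7 for Slc7a11, D10 for both metallothioneins and D12 for Srxn1. At D10 Srxn1 missed only the fold limit. It was called there under the pseudocount of 0.1, the common total and quantile normalization. The order of Srxn1 and the metallothioneins therefore rests on that limit. Of all 16842 genes tested, the share called was 0.760% on D0, 1.33% on D1, 3.70% on D3, 6.48% on D5, 10.4% on D7, 27.8% on D10 and 23.4% on D12. In the lower direction alone, it was 2.45% on D3, 3.28% on D5, 4.65% on D7, 12.3% on D10 and 9.97% on D12. At D0 and D1, limma gave an unadjusted p under 0.05 to 2 and 1 of the 9 members, and to 15.8% and 13.5% of all genes. The median log2 difference of the 9 members was −0.97 at D10 and −1.21 at D12, beside 0.10 and 0.17 over all genes tested. Each day's comparison has its own libraries, but the changes over time described below reuse them, so that a low D0 or D7 library enters several values.

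**Figure D1:**
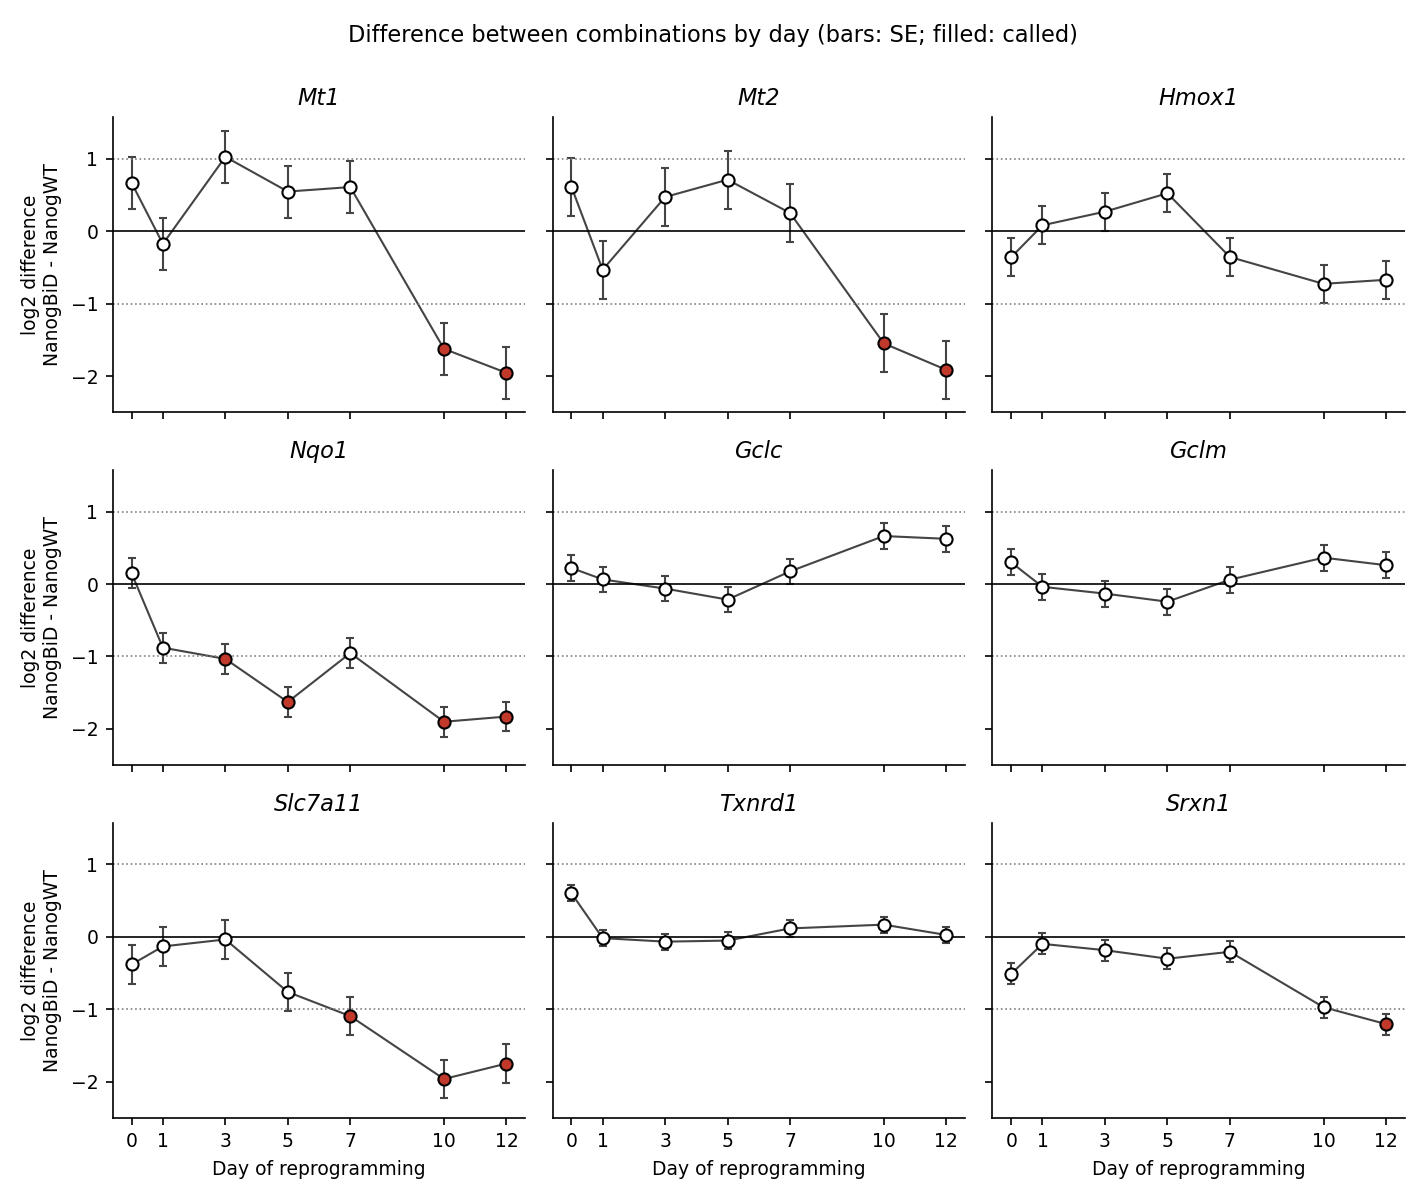
Log2 difference of NanogBiD from NanogWT, in log2(FPKM + 1), by day of reprogramming for each of the 9 genes; bars are SE from limma, filled points are called, and dotted lines mark a log2 difference of 1. Nqo1 lies below 0 from D1 on, Slc7a11 is at −1.10 at D7, and Mt1 and Mt2 lie above 0 at D3 to D7 and at −1.62 and −1.55 at D10, while Gclc, Gclm and Txnrd1 stay within 1 of 0 on the days plotted, which leave out D8.

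From D0 to D1, 3 members rose with NanogBiD, where 8.85% of all genes were called and 5.06% rose, and 3 with NanogWT, where 7.64% were called and 4.61% rose. From D0 to D7, 3 rose and 1 fell with NanogBiD (18.8% of all genes called, 12.7% higher and 6.15% lower), and 3 rose with NanogWT (17.7% called, 12.0% higher). From D7 to D12, 3 fell with NanogBiD, where 8.37% of all genes were called lower, and 1 with NanogWT, where 4.62% were. The difference between the combinations itself moved down for 1 member from D0 to D7 (10.1% of all genes called, 4.88% lower) and for 2 from D7 to D12 (14.1% called, 7.33% lower). From MEF to D0, 2 members rose with NanogBiD (11.4% of all genes called, 5.84% higher) and 1 with NanogWT (6.75% called, 3.71% higher).

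Mt1 and Mt2 rose within 1 day of the medium change in both combinations and stayed high through D7. By D10 the combinations had parted, with both genes under their D7 means with NanogBiD and not with NanogWT. At D0, Mt1 was at 60.2 and 50.5 FPKM with NanogBiD and at 49.9 and 23.6 with NanogWT, and at D1 at 125 and 179 against 192 and 148. No D0 library reached any D1 library. Mt1 rose 2.74-fold with NanogBiD (log2 difference 1.42, SE 0.36, adjusted p = 0.0063) and 4.64-fold with NanogWT (2.26, SE 0.36, adjusted p = 0.00011). The NanogBiD call was lost without D0 replicate 2 (adjusted p = 0.059) or D1 replicate 2 (0.070). Mt2 was at 29.0 and 17.2 FPKM at D0 and 92.9 and 88.2 at D1 with NanogBiD, and at 25.02 and 7.97 and then 168 and 103 with NanogWT. Its rise was 3.92-fold (1.97, SE 0.40, adjusted p = 0.0012) and 8.20-fold (3.11, SE 0.40, adjusted p = 1.0e-05). Without NanogWT D0 replicate 1, the library with the highest macrophage marker sum, the NanogWT rises were 2.79 for Mt1 and 3.88 for Mt2 on the log2 scale. Without replicate 2, the lowest library of both genes, they were 1.74 and 2.35, so the size of the NanogWT rise varied with the D0 library. With the compared groups fitted alone in limma, both NanogWT calls were lost (adjusted p = 0.14 for Mt1 and 0.15 for Mt2). The NanogBiD call of Mt1 was lost in that fit as well (adjusted p = 0.052).

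The metallothionein levels then held through the iCD3 phase. With NanogBiD, Mt1 was at 206 and 271 FPKM on D3, 254 and 206 on D5, then 119.7 and 289 on D7. With NanogWT it was at 128 and 104, 155 and 157, and 98.3 and 150.2 on the same days. The NanogBiD libraries lay above the NanogWT libraries at D3 and D5 and overlapped them at D7, and none of these differences was called (D3: log2 difference 1.03, SE 0.36, adjusted p = 0.078). The D7 value rests on which NanogBiD library is used, being 1.24 and called without replicate 1 and −0.02 without replicate 2. From D0 to D7, Mt1 rose by 1.74 (SE 0.36, adjusted p = 0.00059) with NanogBiD and by 1.79 (adjusted p = 0.00047) with NanogWT. The NanogBiD value was 1.10 without D7 replicate 2. Mt2 rose by 2.32 (SE 0.40, adjusted p = 9.9e-05) and 2.68 (adjusted p = 2.0e-05). With the compared groups fitted alone in limma, the Mt1 calls were lost (adjusted p = 0.067 with NanogBiD and 0.096 with NanogWT). The NanogWT call of Mt2 was lost in that fit as well (adjusted p = 0.067).

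After the change to 2iL, the metallothioneins were lower with NanogBiD in every library. At D8, Mt1 was at 125 FPKM in the single NanogBiD library and at 187 and 184 with NanogWT. At D10 it was at 56.2 and 33.8 against 147 and 127, and at D12 at 43.6 and 32.0 against 147 and 149. The NanogWT mean was 3.04 times the NanogBiD mean at D10 (log2 difference −1.62, SE 0.36, adjusted p = 0.00073) and 3.91 times at D12 (−1.96, SE 0.36, adjusted p = 0.00015). Mt2 was at 167 FPKM at D8 in the single NanogBiD library, above its D7 mean of 120. With NanogWT its D8 mean was 220, above 97.2 at D7. It was then at 81.2 and 45.2 against 225 and 143 FPKM at D10 and at 45.8 and 35.6 against 178 and 135 at D12. Its differences were −1.55 (SE 0.40, adjusted p = 0.0028) and −1.91 (SE 0.40, adjusted p = 0.00054). The D10 call of Mt2 was lost without NanogBiD replicate 2 (adjusted p = 0.060) or NanogWT replicate 1 (0.051).

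The change from D7 to D12 was itself different between the combinations. Mt1 fell by 2.29 (SE 0.36, adjusted p = 3.2e-05) with NanogBiD and differed by 0.28 (SE 0.36, adjusted p = 0.64) with NanogWT, a difference of the changes of −2.57 (SE 0.51, adjusted p = 0.0010). Mt2 fell by 1.498 (SE 0.40, adjusted p = 0.0049) with NanogBiD, against 0.67 (adjusted p = 0.26) with NanogWT, a difference of −2.17 (SE 0.57, adjusted p = 0.0089). Both Mt2 calls were lost without NanogBiD D7 replicate 2 (adjusted p = 0.086 and 0.055). The fibroblast marker sum at D12, 306 and 449 against 3487 and 3034 FPKM, and the depth of the NanogWT libraries moved with these differences, and their part in the result was not tested.

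As reference states, Mt1 was at 87.6 and 52.1 FPKM in MEF and 710.0 in mES, and Mt2 at 48.6 and 17.7 in MEF and 1633 in mES. Both NanogBiD libraries of D12 were under both MEF libraries in Mt1, both NanogWT libraries were above them, and the mES value was above every time-course library of either gene. The balance of the pair shifted along the course: the ratio of Mt2 to Mt1 was 0.340 to 0.555 in MEF, 0.338 to 0.501 at D0, 0.468 to 0.979 from D1 to D7, 0.910 to 1.53 from D8 to D12 and 2.30 in mES. These ratios did not separate the combinations at D10 or D12. Across the 31 time-course libraries, which share days and combinations, Mt1 and Mt2 correlated at r = 0.864 on the log2 scale.

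**Figure D2:**
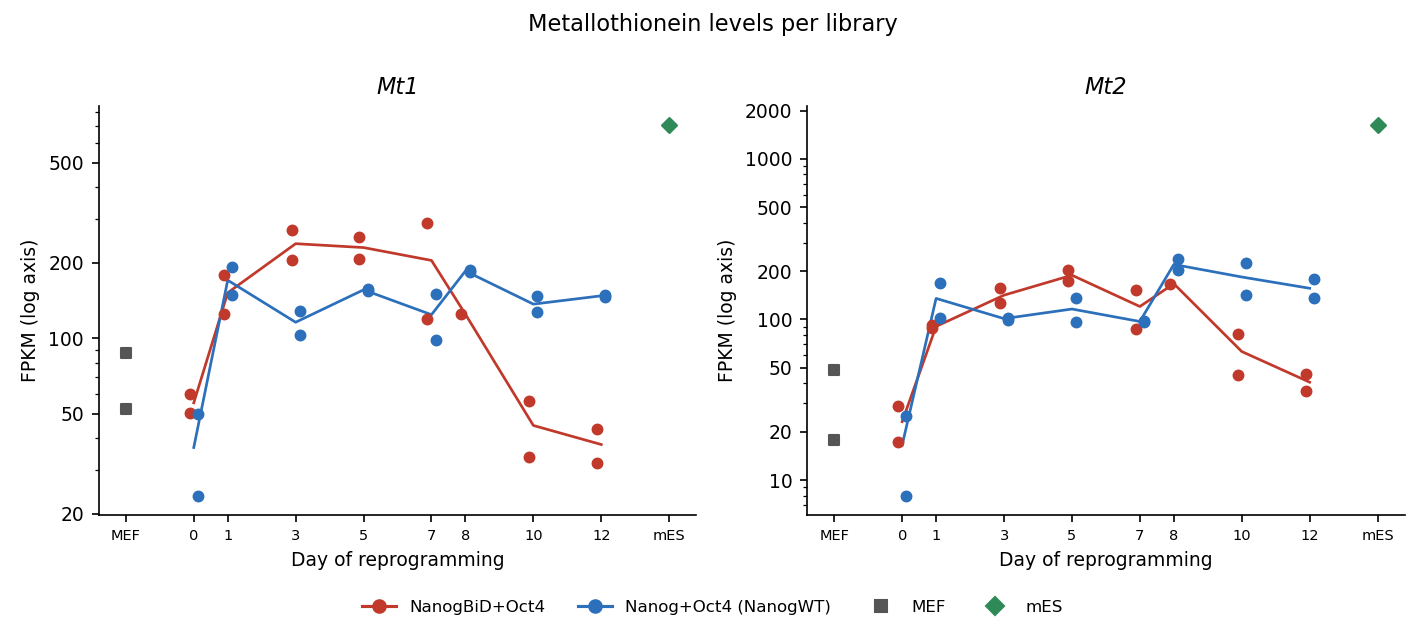
Mt1 and Mt2 levels in FPKM (log axis) against day of reprogramming; points are libraries, lines join the means of NanogBiD (red) and NanogWT (blue), squares are MEF and the diamond is mES. Both genes are higher in every D1 library than in every D0 library, the NanogBiD libraries of D10 and D12 lie between 32.0 and 81.2, and mES is at 710.0 (Mt1) and 1633 (Mt2).

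Nqo1, the quinone reductase and a standard reporter of NRF2 activity, was the first member called between the combinations, at D3. On every sampled day from D1 on, its NanogBiD libraries lay below its NanogWT libraries. It was at 5.71 and 5.24 FPKM in MEF and 40.5 in mES. At D0 it was already at 24.6 and 29.1 with NanogBiD and 24.8 and 23.4 with NanogWT, a rise over MEF of 2.10 (SE 0.20, adjusted p = 1.9e-07) and 1.95 (SE 0.20, adjusted p = 9.2e-07). Infection and the other handling of the cells up to D0 cannot be told apart in this contrast. At D1 the NanogWT libraries reached 63.2 and 54.5 FPKM (1.25 over D0, SE 0.21, adjusted p = 0.00017), while those of NanogBiD were at 24.2 and 40.8 (0.23, adjusted p = 0.48). The combinations differed at D1 by −0.88 (SE 0.21, adjusted p = 0.021), under the fold limit. Both ends rest on 1 NanogBiD library, with −1.24 and called without replicate 2 and −0.52 (adjusted p = 0.42) without replicate 1.

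From D3 to D7 Nqo1 stood between 8.40 and 11.5 FPKM in the 6 NanogBiD libraries and between 21.4 and 31.1 in the 6 NanogWT libraries, without overlap. The difference was −1.03 at D3 (SE 0.21, adjusted p = 0.0024), −1.63 at D5 (SE 0.21, adjusted p = 1.3e-05) and −0.95 at D7 (SE 0.21, adjusted p = 0.0016), where it missed the fold limit but passed it at −1.01 without NanogBiD replicate 2 or NanogWT replicate 1. The D3 value fell under that limit, at −0.97, without NanogWT replicate 2. Nqo1 fell from D0 to D7 with NanogBiD by 1.21 (SE 0.21, adjusted p = 8.9e-05) and differed by −0.11 (adjusted p = 0.74) with NanogWT. The difference of these changes was −1.10 (SE 0.29, adjusted p = 0.014), and it lost its call without NanogBiD D0 replicate 2 (−0.98) or NanogWT D7 replicate 2 (adjusted p = 0.050).

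At D8 Nqo1 was at 10.6 FPKM with NanogBiD and at 12.9 and 17.7 with NanogWT, with less distance between the combinations than at any other day after D0. It was then at 11.5 and 7.85 against 42.8 and 34.2 at D10 and at 9.77 and 8.74 against 31.6 and 39.6 at D12. The NanogWT mean was 3.99 times (−1.90, SE 0.21, adjusted p = 2.6e-07) and 3.85 times (−1.83, SE 0.21, adjusted p = 5.0e-07) the NanogBiD mean. The genes most like Nqo1 across the 31 libraries were Serpine2 (r = 0.887), Pter (0.883) and Dcn (0.879), of 9332 ranked. Dcn is one of the 10 fibroblast markers, of which 3 were lower with NanogBiD on D1, 5 each on D3 and D5, 4 on D7 and 10 each on D10 and D12. The part of the fibroblast share in the Nqo1 values was not tested.

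Slc7a11, which imports cystine for glutathione synthesis in exchange for glutamate, had the widest range of the 9 genes in the time course, 19.6-fold between its lowest and highest group means. With NanogBiD it was at 4.201 and 4.37 FPKM at D0 and 6.76 and 6.74 at D1, reached 23.6 and 33.4 by D3 and 41.2 and 37.1 by D5, and stood at 38.8 and 38.6 on D7. With NanogWT it was at 6.38 and 5.41, 8.08 and 6.95, 32.1 and 25.9, 82.4 and 54.3, and 84.6 and 83.2 on the same days. The libraries of the combinations overlapped at D3, and those of NanogWT lay above every NanogBiD library at D5 and D7. The rise from D0 to D7 was 9.04-fold with NanogBiD (2.91, SE 0.27, adjusted p = 3.9e-08) and 14.2-fold with NanogWT (3.62, SE 0.27, adjusted p = 1.7e-09). At D7 the combinations differed by −1.10 (SE 0.27, adjusted p = 0.0041). At D5 the difference was −0.76 (SE 0.27, adjusted p = 0.057), or −1.06 and called without NanogWT replicate 2 and −0.46 (adjusted p = 0.48) without NanogWT replicate 1.

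After the medium change, Slc7a11 was at 9.28 FPKM at D8 with NanogBiD and at 47.3 and 22.9 with NanogWT. At D10 it was at 4.41 and 5.78 against 24.8 and 20.6, and at D12 at 4.43 and 6.41 against 16.9 and 24.4. The NanogBiD libraries of D10 and D12 lay beside the MEF levels of 5.56 and 4.69, and mES was at 0.338. The fall from D7 to D12 was 2.65 with NanogBiD (SE 0.27, adjusted p = 1.2e-07) and 1.99 with NanogWT (SE 0.27, adjusted p = 1.0e-05), and the difference between these falls was not called (−0.66, SE 0.38, adjusted p = 0.24). The combinations differed by −1.96 at D10 (SE 0.27, adjusted p = 3.9e-06) and −1.75 at D12 (SE 0.27, adjusted p = 1.9e-05). Igsf10 (r = 0.949), Kcnj5 (0.946) and Prkca (0.944) followed Slc7a11 most closely across the 31 libraries.

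Because Slc7a11 holds 2 CARE letter matches, the ATF4 list is given beside it. From MEF to D0, 8 of the 10 listed genes fell with NanogBiD, where 5.51% of all genes were called lower. With NanogWT 4 of 10 fell, where 3.03% of all genes did. Among the 8 were the ATF4 targets Trib3 (−3.97, adjusted p = 3.0e-09) and Chac1 (−2.51, adjusted p = 9.2e-06). From D0 to D7, the serine synthesis gene Psat1 fell in both combinations (−1.35, adjusted p = 2.0e-05, and −1.96, adjusted p = 1.7e-07). Of all genes, 6.15% with NanogBiD and 5.69% with NanogWT were called lower in that interval. Slc3a2, the partner chain of Slc7a11 in the transporter, differed by 0.53 (SE 0.28, adjusted p = 0.13) and 0.48 (SE 0.28, adjusted p = 0.19) over the same interval. The rest of the list is not given for this interval, and the part of ATF4 in the Slc7a11 rise was not tested.

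Srxn1, sulfiredoxin, which repairs overoxidized peroxiredoxins, peaked at D1 in both combinations. It was at 19.6 and 16.99 FPKM at D0 and 47.2 and 51.1 at D1 with NanogBiD, and at 27.6 and 25.3 and then 49.3 and 56.1 with NanogWT. The rise was 2.69-fold (1.38, SE 0.15, adjusted p = 1.0e-06) with NanogBiD and 1.99-fold (0.97, SE 0.15, adjusted p = 6.0e-05) with NanogWT, the latter just under the fold limit. By D7 the levels were 22.3 and 21.8 against 27.6 and 23.8. At D10 Srxn1 was at 12.2 and 15.2 against 28.9 and 26.5 (−0.97, SE 0.15, adjusted p = 1.2e-05), and at D12 at 10.1 and 11.1 against 24.5 and 26.9 (−1.21, SE 0.15, adjusted p = 1.2e-06). The NanogBiD libraries of D12 were close to the mES value of 9.33 and below the MEF values of 16.8 and 20.4. The difference of the D7 to D12 changes was −0.998 (SE 0.21, adjusted p = 0.0014), just under the fold limit. Leaving out 1 library gave −1.10 to −0.90 for it, −1.12 to −0.83 for the D10 difference and 0.88 to 1.06 for the NanogWT rise to D1, so that each crossed the limit in some cases.

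Hmox1, the inducible heme oxygenase that turns heme into biliverdin, iron and carbon monoxide, was not called in any comparison. Its levels lay between 27.5 and 78.5 FPKM over the 31 libraries, with MEF at 40.9 and 40.2 and mES at 86.3. At D10 it was at 43.7 and 36.4 with NanogBiD and 73.2 and 60.7 with NanogWT (−0.73, SE 0.26, adjusted p = 0.025), and at D12 at 33.2 and 27.5 against 55.4 and 42.8 (−0.67, SE 0.26, adjusted p = 0.040). The libraries did not overlap at either day, but the differences were under the fold limit. With 1 library left out, they were −0.86 to −0.59 at D10 and −0.85 to −0.49 at D12. The 2 NanogWT libraries of D0 were 68.2 and 37.2 FPKM in Hmox1 and 151 and 53.4 in the macrophage marker sum. That sum was 7.97 and 4.21 with NanogBiD and 40.6 and 11.3 with NanogWT at D10. At D12 it was 8.45 and 5.84 against 21.4 and 7.90. The part of such cells in the Hmox1 levels and differences was not tested. The genes most like Hmox1 were Ctsz (r = 0.902), Rab5c (0.894) and Vamp8 (0.889). Those most like Mt1 were Tmem35 and Tmem35a, which are listed with identical values (0.881), and Itprid2 (0.875).

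**Figure D3:**
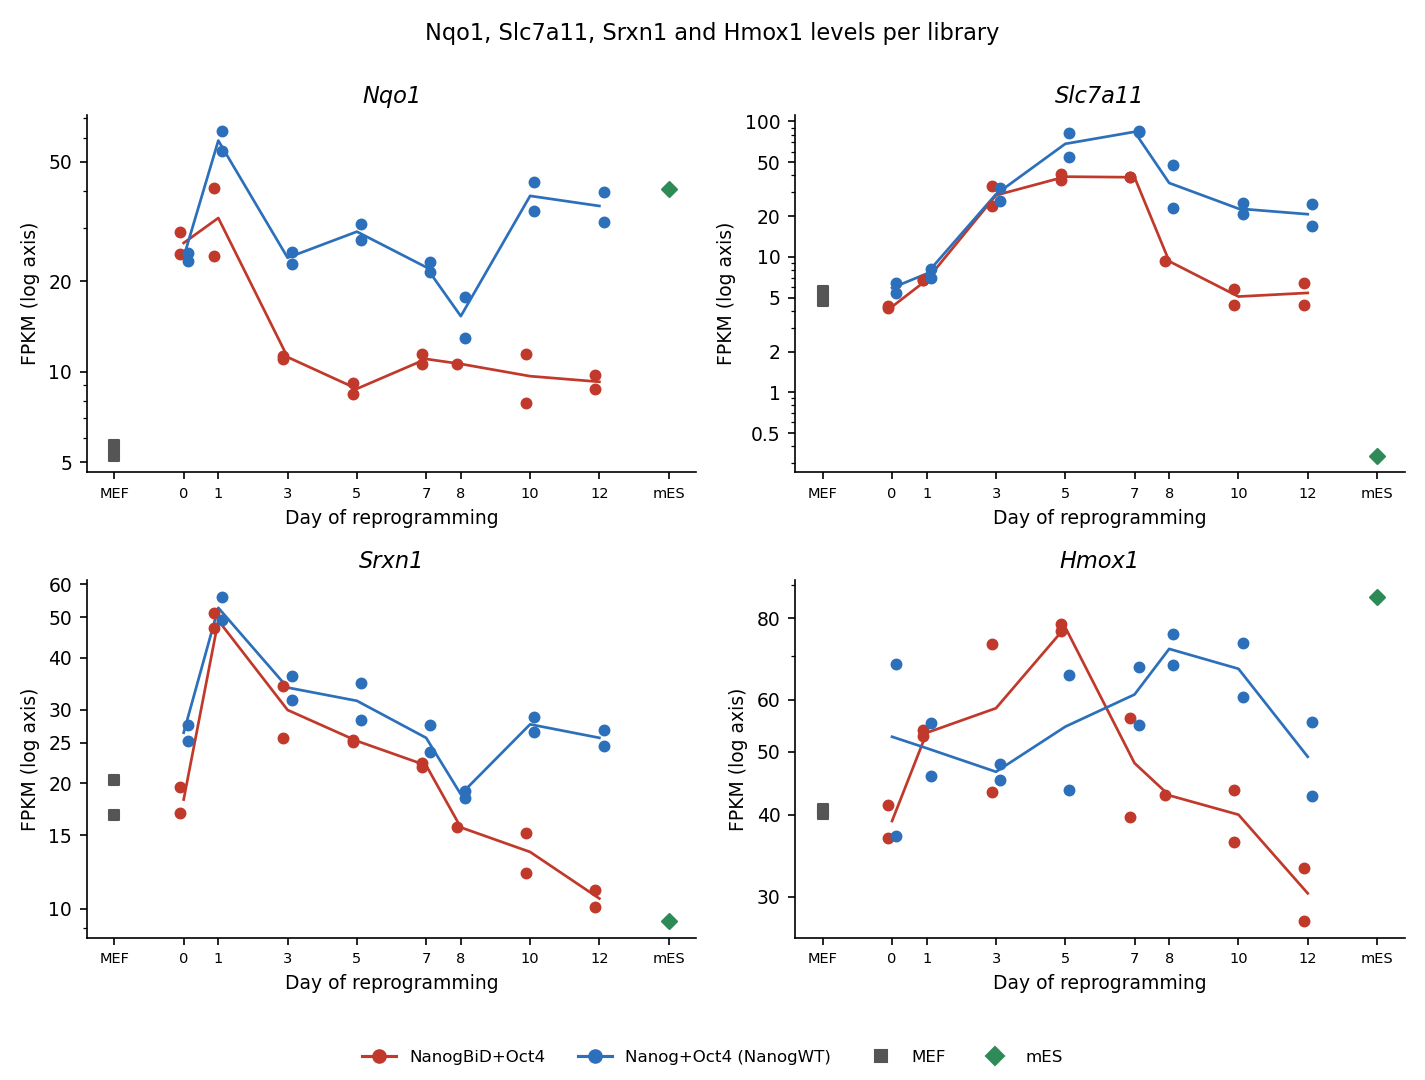
Nqo1, Slc7a11, Srxn1 and Hmox1 levels in FPKM (log axes that differ between panels) against day of reprogramming; points are libraries, lines join means of NanogBiD (red) and NanogWT (blue), squares are MEF and diamonds are mES. Nqo1 is at 8.40 to 11.5 in the NanogBiD libraries of D3 to D7, Slc7a11 peaks at 84.6 with NanogWT at D7 and is at 0.338 in mES, and Srxn1 peaks at D1 in both combinations.

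Glutamate-cysteine ligase makes the first step of glutathione synthesis. The differences of its subunits between the combinations were not negative at D10 and D12, and neither were those of Txnrd1. Gclc, the catalytic subunit, was at 8.40 and 8.01 FPKM with NanogBiD and 6.14 and 7.72 with NanogWT at D0, and at 21.8 and 18.4 against 10.95 and 14.6 at D12. It was higher with NanogBiD at D10 (0.66, SE 0.18, adjusted p = 0.0034) and D12 (0.62, SE 0.18, adjusted p = 0.0060), both under the fold limit. It was the only member with a positive difference past the p threshold on those days. Leaving out 1 library gave 0.64 to 0.69 for Gclc at D10 and 0.43 to 0.82 at D12. Gclm, the modifier subunit, ranged from 10.3 to 24.7 FPKM and was not called on any tested day. At D8 it was at 24.2 FPKM with NanogBiD and at 11.6 and 10.3 with NanogWT. Its ratio to Gclc was 2.11 to 2.34 in MEF and 2.09 to 3.18 at D0, and was 0.841 to 1.15 with NanogBiD and 1.205 to 1.48 with NanogWT at D10 and D12. In mES it was 2.71.

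Txnrd1, the cytosolic thioredoxin reductase, was the steadiest member, with group means that spanned 1.54-fold over the time course. Its one called change was the rise from MEF (49.5 and 60.9 FPKM) to D0 with NanogBiD (108.5 and 116.2), a log2 difference of 1.02 (SE 0.12, adjusted p = 2.3e-06). This fell under the fold limit without NanogBiD D0 replicate 2 (0.97) or MEF replicate 1 (0.87). With NanogWT, Txnrd1 was at 74.7 and 72.6 at D0 (0.42 over MEF, adjusted p = 0.018) and at 116 and 103 at D1. The D0 difference between the combinations was 0.60 (SE 0.11, adjusted p = 0.0065), and on the tested days from D1 to D12 the differences were between −0.07 and 0.17. At D8, which was not tested, the NanogBiD library was at 101 FPKM and those of NanogWT at 78.7 and 66.7.

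**Figure D4:**
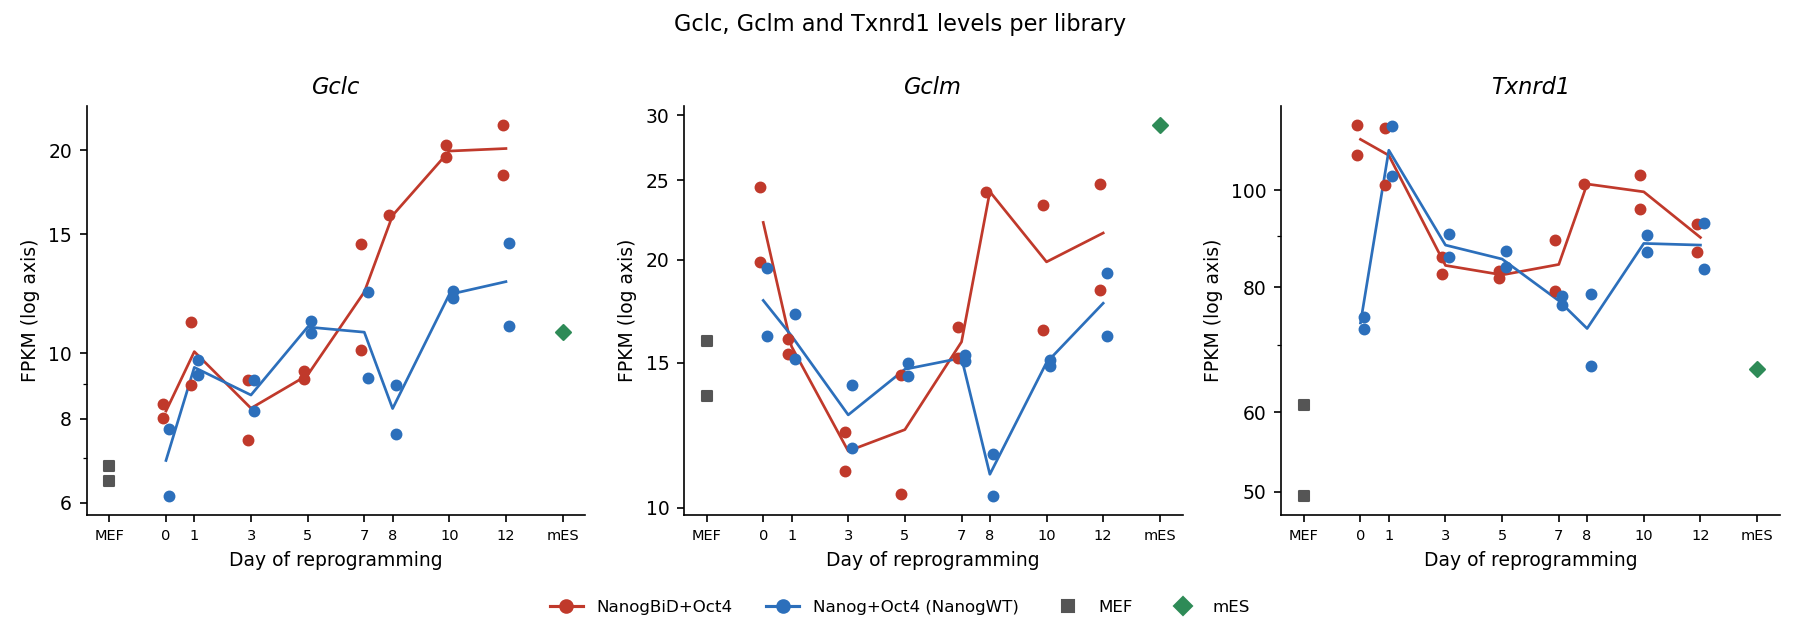
Gclc, Gclm and Txnrd1 levels in FPKM (log axes that differ between panels) against day of reprogramming; points are libraries, lines join means of NanogBiD (red) and NanogWT (blue), squares are MEF and diamonds are mES. Gclc reaches 21.8 with NanogBiD at D12, above the mES value of 10.8, while the Txnrd1 libraries of both combinations overlap at D12.

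Of 22 NRF2 targets outside the 9 members, 0 were higher and 1 lower with NanogBiD on D0, and 1 and 3 on D7. The counts were 2 and 4 on D10, then 2 and 3 on D12. Of all genes tested, 5.79% were called higher on D7, 15.4% on D10 and 13.5% on D12. The median of the list was 0.12 at D12 beside 0.17 over all genes. Ephx1, the microsomal epoxide hydrolase, was lower with NanogBiD on each of the 7 days tested, with a log2 difference of −1.59 at D0 (adjusted p = 0.0026) and −2.51 at D10 (adjusted p = 2.0e-07). Gsta4, a glutathione transferase that clears lipid peroxidation products, went the other way. It was at 5.72 and 6.59 FPKM at D0 and 112 and 119.9 at D7 with NanogBiD (4.04, adjusted p = 6.4e-09), at 9.24 and 10.8 and then 26.9 and 32.2 with NanogWT (1.47, adjusted p = 0.0011), and at 172 in mES. Tkt, transketolase of the pentose phosphate pathway, was higher with NanogBiD at D10 (2.02, adjusted p = 2.7e-07) and D12 (1.66, adjusted p = 3.6e-06). Fth1, the ferritin heavy chain, was lower at D12 (−1.60, adjusted p = 6.4e-07), a value that is uncertain where reads are shared with its pseudogenes.

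Among the regulators, Nfe2l2 itself rose from 27.3 and 27.8 FPKM at D0 to 64.2 and 70.0 at D1 with NanogBiD (1.25, SE 0.15, adjusted p = 4.0e-06) and from 22.4 and 19.4 to 66.7 and 72.0 with NanogWT (1.69, SE 0.15, adjusted p = 9.2e-08). It was the one called gene of the 8 regulators in that interval in either combination. Between the combinations, 0 of the 8 were called from D0 to D7, and Mafk, a small MAF partner of NRF2, was lower with NanogBiD at D10 (−1.55, adjusted p = 3.6e-06) and D12 (−1.29, adjusted p = 3.9e-05). Nfe2l2 differed by −0.28 (SE 0.15, adjusted p = 0.13) at D12 and Keap1 by −0.43 (SE 0.19, adjusted p = 0.062).

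Of 10 zinc and metal handling genes, 2 rose from D0 to D1 with NanogBiD, where 5.06% of all genes rose, and 3 with NanogWT, where 4.61% did. The importers Slc39a6 (1.26, adjusted p = 2.5e-06, and 1.11, adjusted p = 9.9e-06) and Slc39a10 (1.16, adjusted p = 0.00067, and 1.11, adjusted p = 0.0011) did so in both. The third with NanogWT was the metallothionein Mt3, at 0 and 0.879 FPKM at D0 and 3.03 and 7.38 at D1 (2.08, adjusted p = 0.010). By D7 Slc39a10 had risen by 2.23 with NanogBiD (adjusted p = 1.2e-07) and 2.24 with NanogWT (adjusted p = 1.0e-07). The exporter Slc30a1, another MTF1 target, rose by 1.05 (adjusted p = 0.00018) from D0 to D7 with NanogBiD. Mtf1 differed by at most 0.30 (adjusted p = 0.21) from D0 to D1. At D12, where 9.97% of all genes were called lower with NanogBiD, 2 of the 10 were lower. These were the importers Slc39a8 (−1.62, adjusted p = 4.6e-05) and Slc39a1 (−1.06, adjusted p = 6.0e-05).

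At D12, 13.5% of all genes tested were called higher with NanogBiD and 9.97% lower. Among 18 other antioxidant enzymes, 2 were higher and 4 lower with NanogBiD on that day. The lowest were Sod3, the extracellular superoxide dismutase (−2.41, adjusted p = 8.6e-07), and Gpx8, a glutathione peroxidase of the endoplasmic reticulum (−2.39, adjusted p = 1.5e-06). Of 10 heme and iron genes, 2 were higher, the transferrin receptor Tfrc (1.73, adjusted p = 4.7e-06) and the iron exporter Slc40a1 (1.79, adjusted p = 0.00012). Of 10 ATF4 genes, 2 were higher, Asns (2.08, adjusted p = 6.9e-07) and Ddit4 (1.57, adjusted p = 0.0010). Of 8 glucocorticoid response genes, Klf9 was higher (1.32, adjusted p = 6.9e-05) and Nr3c1, the receptor, lower (−2.19, adjusted p = 1.9e-07).

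In established iPSC, no tested member was called between the combinations. Slc7a11 did not pass the filter on low values, and of the other 8 members none was called, with log2 differences of NanogBiD from NanogWT iPSC between −0.10 and 0.16 and SE up to 0.26. Over all 12456 genes, 0.00% were called by limma, with 201 at an unadjusted p under 0.05 and 0 of those 8 members among them. Between the lines, iPSC2 against iPSC1, 0 of 8 members and 0.883% of all genes were called, and 3 of 8 members and 24.6% of all genes had an unadjusted p under 0.05. Nqo1 was nearest, at 38.7 ± 4.00 FPKM (SD, n = 5) in iPSC2 and 28.6 ± 4.57 (SD, n = 7) in iPSC1 (0.42, SE 0.11, adjusted p = 0.057). The lines were at different passages, and line cannot be told apart from passage. The 4 iPSC libraries whose fibroblast markers summed to over 100 FPKM were all iPSC1, and without them the Nqo1 difference was 0.36 (adjusted p = 0.28) and that of Mt1 0.26 (adjusted p = 0.79) in place of 0.57 (adjusted p = 0.21).

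Against MEF, 4 of the 9 members were higher in iPSC and 1 was lower, where 40.4% of all 13312 genes were called, 21.7% higher and 18.7% lower. Mt1 was at 346.7 ± 124.9 FPKM (SD, n = 12) in iPSC against 97.6 and 59.9 in MEF (2.07, SE 0.39, adjusted p = 0.00027), and Mt2 at 457 ± 149 against 48.7 and 17.2 (3.85, SE 0.40, adjusted p = 9.5e-07). Nqo1 was at 32.8 ± 6.64 against 6.01 and 5.22 (2.33, SE 0.20, adjusted p = 1.7e-07) and Gclm at 43.2 ± 5.37 against 15.2 and 12.2 (1.58, SE 0.14, adjusted p = 1.9e-07). Slc7a11 was at 0.0997 to 2.23 FPKM, with a median of 0.357, against 4.56 and 3.97 (−1.89, SE 0.30). It passed the filter on low values here only through the MEF libraries, where it is high. Its lower call was favoured by that filter and is a description only. All iPSC libraries lay on one side of both MEF libraries for these 5 genes. Gclc (0.99, SE 0.16, adjusted p = 5.6e-05) and Txnrd1 (0.83, SE 0.14, adjusted p = 7.5e-05) were under the fold limit, which Txnrd1 passed without MEF replicate 2 (1.01) and Gclc without MEF replicate 1 (1.01) or any of 3 iPSC libraries (1.00 to 1.02), and Hmox1 (0.51, SE 0.32, adjusted p = 0.17) and Srxn1 (−0.02, SE 0.22, adjusted p = 0.93) passed neither threshold. The mES library was above every iPSC library in Mt1 (774) and Mt2 (1417).

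Fibroblast markers summed to over 100 FPKM in 4 of the 12 iPSC libraries, and the highest, NanogBiD iPSC1 sample 9#, stood at 1394 beside 7382 and 6479 in MEF. That sample had the highest Hmox1 of the iPSC, 113 FPKM, where the other 11 ranged from 40.7 to 80.5. MEF were at 37.5 and 38.5, below every iPSC library. Without these 4 libraries, the call against MEF held for Mt1 (2.27), Mt2 (4.04), Nqo1 (2.44) and Gclm (1.62), and Gclc passed the fold limit as well (1.07, adjusted p = 7.6e-05). Slc7a11, which passed the filter only through MEF, was at −1.81. Beyond the members, 10 of 21 tested NRF2 targets were higher in iPSC than in MEF and 3 lower, with Gsta4 (5.06, adjusted p = 4.8e-11) and Gpx2 (4.12, adjusted p = 3.5e-09) furthest up.

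**Figure D5:**
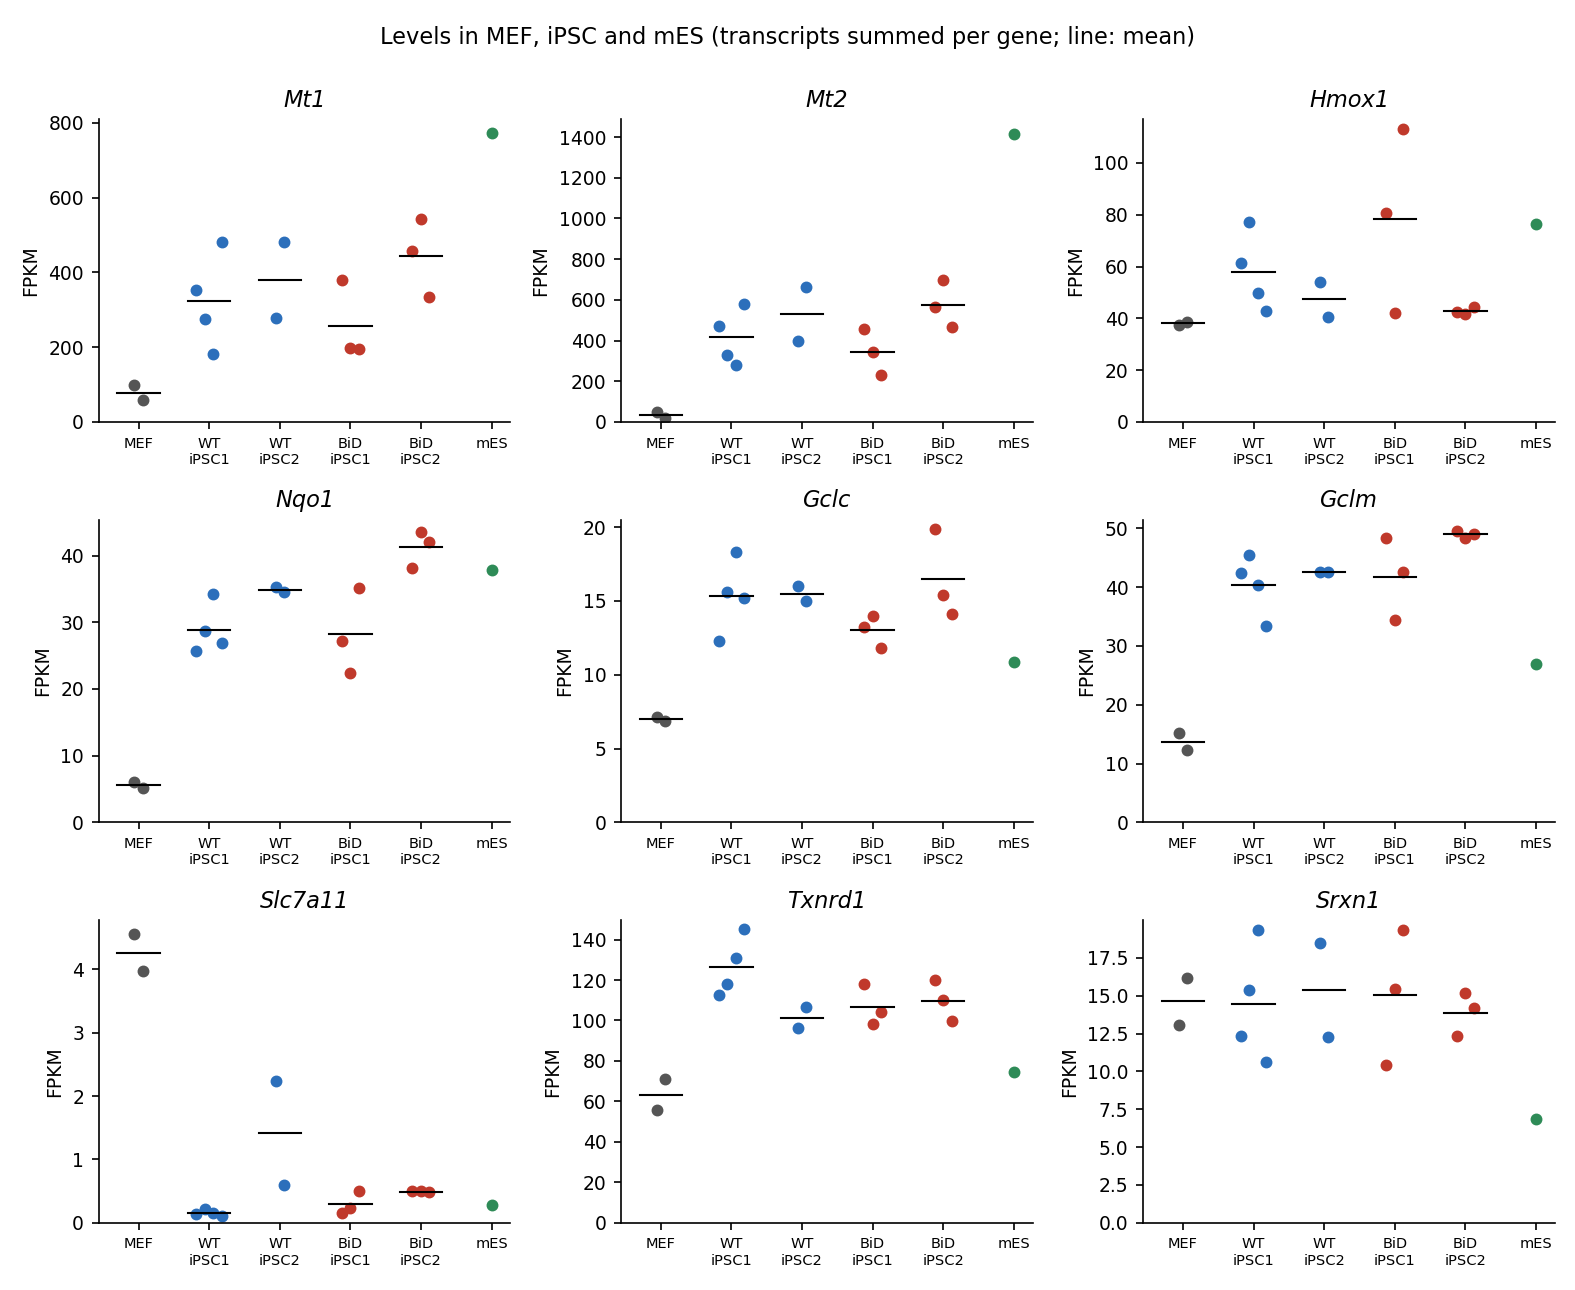
Levels in FPKM, from transcripts summed per gene, of the 9 genes in 2 MEF, 12 iPSC and 1 mES library; points are libraries and black lines are group means, with NanogWT iPSC in blue and NanogBiD iPSC in red. Mt1, Mt2, Nqo1 and Gclm are higher in every iPSC library than in MEF, Slc7a11 is lower in every iPSC library, and the mES value of Mt2 (1417) is above every iPSC value.

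At the level of transcripts, each of Mt2, Hmox1, Nqo1, Gclm and Srxn1 had 1 listed transcript with all of the gene's FPKM. Mt1 had a second, predicted transcript that carried 0.0597% to 1.32% of the gene in iPSC and 1.07% to 2.21% in MEF. Txnrd1 was spread over 4 transcripts. The main one carried 73.4% to 97.1% of it in the iPSC libraries, with a median of 89.6%, and 65.4% and 88.1% in MEF. The next in iPSC was at 2.35% to 21.9%. The MEF and mES libraries appear in both tables, and there the summed transcripts were 0.737 to 1.17 times the gene-table value over 27 values, so levels were compared only within a table.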

How the data were processed

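RNA-seq libraries of the time course, MEF, mES and iPSC were analysed from 2 deposited tables. Per the submitters' processing notes and the study's methods, the authors trimmed reads with Trim Galore 0.6.4, aligned them to mm10 with HISAT2 2.2.1 and had StringTie 2.2.1 write FPKM per gene and per transcript, and these deposited FPKM are the values used. The labels and the methods name different library kits of one maker, and the annotation and strand setting are not given in the sources used here. Alignment and FPKM scaling make levels relative within a library.

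Samples were grouped by their labels. Transcripts (106520) were summed by symbol. Genes that reached 1 FPKM in 2 or more libraries were fitted on log2(FPKM + 1) with limma 3.58.1 (R 4.3.3, trend), all time-course groups sharing 1 estimate of the spread, and adjusted by Benjamini-Hochberg over 16842 genes (12456 for iPSC with line as a covariate, 13312 for iPSC against MEF, 16842 with MEF added). A call needed both an adjusted p under 0.05 and a difference of 1 or more in size. D8 was described only. Fold values are ratios of mean FPKM. Relative depth was read from whole-read steps, and 88.5% to 93.4% of low values came out whole within a tolerance of 0.05 reads. Total reads are not known.

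The members and the gene lists were chosen with earlier results of these data known. Named genes were all 9 members, up to 4 called genes of a list with the largest difference per comparison, and for 4 members the 3 genes of at least 5 FPKM on average with the highest Pearson r. Nfe2l2, Keap1, Mtf1 and Slc3a2 are also given where not called, for their role. Alternatives were a pseudocount of 0.1, no filter, rescaling to a common total, quantile normalization, the compared groups alone, a replicate block, leaving out each library, and, for iPSC, averaging NanogWT iPSC1 samples 1# and 1#-2 and leaving out 4 libraries with high fibroblast markers, the last chosen after seeing the data. Python 3.11.15 and pandas 2.3.3 were used for the rest.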

Additional observations from a re-analysis of the deposited data

Results flagged for a closer look

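Slc7a11 in NanogWT iPSC2 sample 5# stood apart from the other iPSC of its combination, at 2.23 FPKM against 0.0997 to 0.595 in the other 5, a gap of 0.768 of the range of the 6 libraries. It was the one such library in 18 groups examined (9 genes in 2 combinations), and chance flags about 1 in 20.

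The change of Nqo1 from D0 to D7 differed between NanogBiD and NanogWT by −1.10 on the log2 scale. The changes of Mt1 and Mt2 from D7 to D12 differed by −2.57 and −2.17. Each was tested as a difference of changes in limma and had an adjusted p under 0.05. The value of Nqo1 lost its call without NanogBiD D0 replicate 2 (−0.98) or NanogWT D7 replicate 2 (−1.05), and that of Mt2 without NanogBiD D7 replicate 2 (−1.77).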

How the results depend on the processing

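No value changed its direction past the threshold under any alternative run. Of the counts of members called, 209 alternatives kept the main count within 1.5 times, 12 gave more and 11 fewer. At D7, 2 members were called in place of 1 under the pseudocount of 0.1, the common total and quantile normalization. With the compared groups fitted alone, which leaves few libraries to estimate the spread, the count was 0 at D3 (0 of all genes called, 2613 at an unadjusted p under 0.05), 0 for NanogWT from D0 to D1 (0 of all genes called, 3409 unadjusted), 1 for NanogWT from D0 to D7 and 0 for NanogWT from MEF to D0 (2685 unadjusted). From MEF to D0, NanogBiD had 1 under the common total and quantile normalization, and NanogWT had 2 under the common total. Leaving out 1 library gave 0 to 1 members at D1, 0 to 1 at D3, 1 to 2 at D5, 1 to 2 at D7 and 3 to 5 at D10, 0 to 1 for the change of the difference from D0 to D7, 2 to 4 from D7 to D12, and 1 to 2 (NanogBiD) and 1 to 3 (NanogWT) from MEF to D0. Without NanogWT D0 replicate 1, Mt1 (−1.48) and Mt2 (−1.77) were called lower at D0 than in MEF, as was Mt2 (−1.70) without MEF replicate 2. The cause was not tested. Over all genes, the pseudocount of 0.1 raised the calls from 1758 to 2716 at D7 and from 3171 to 4846 for NanogBiD from D0 to D7, and quantile normalization moved the share of higher calls in the latter from 67.3% to 48.1%, with the median over all genes at −0.01 in place of 0.24. Low values are less precise in the time-course libraries of relative depth 0.830 to 1.13 than in the deeper NanogWT libraries of the 2iL phase (1.89 to 3.26).

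Same-numbered libraries deviated from their group means with correlations of −0.065 to 0.394 by day, the highest on D7. Replicate 1 also had the higher macrophage marker sum on each day with both replicates. What same-numbered libraries share is not stated, and the main fit did not treat them as pairs. With the replicate block, no count of members called changed, with 5 at D12 and 3961 of all genes called there in place of 3946.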
